A study of Mus musculus with 6 samples.

Results

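Solute carrier and ion pump genes were examined in mouse natural killer (NK) cells by ChIP-seq, which sequences the DNA precipitated with a protein, here Ikaros, the zinc finger transcription factor that Ikzf1 encodes. Members were chosen by gene name alone: protein-coding genes in the authors' annotation of the peaks whose symbol began with Slc and a digit, Abc with a letter and a digit, Atp1, Atp2, Atp6, Atp8, Atp11 or Cnnm. This gave 48 genes of the 2145 protein-coding gene names in the peak lists, and 51 regions of the 2526 in all. The series held 6 samples, 3 KO and 3 WT, of which the lists of the 3 WT libraries were analysed; KO libraries, in which Ikzf1 is deleted in cells that express NKp46, were not analysed here. The WT cells were splenic NK cells of WT genotype, grown in IL-15 at 50 ng/ml, and the antibody was an anti-Ikzf1 antibody (sc-13039). The labels used here name no strain, age or individual animals, so differences between lists may be technical in origin.

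Membrane transporters set what a cell takes up, exports and stores in its organelles. Solute carriers move amino acids, sugars, metals, nucleosides and metabolites down or against gradients. P-type ATPases pump ions or flip lipids, and the V-ATPase acidifies lysosomes and granules. In NK cells, IL-15 and activation raise nutrient uptake, and the granules that hold the cytotoxic proteins are acid organelles. Ikaros binds DNA at sites with a GGGAA core. A peak marks DNA enriched in the precipitate; it is no measure of a gene's expression.

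Member peaks numbered 14, 37 and 30 in WT replicates 1, 2 and 3, in lists of 685, 2084 and 1342 peaks. They were merged with all others that shared at least 1 base. The 51 member regions fell into 10 in all lists, 10 in exactly 2 and 31 in 1 list. Of the 31 seen once, 2 came from replicate 1, 18 from replicate 2 and 11 from replicate 3. Fold enrichment below is the authors' own ratio for a peak within its list, and the percentile is the rank of that value in the same list, 100 being the strongest. Read counts are not part of the lists, and the depth behind each value is therefore unknown.

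Stretches of promoter that a member peak covered are shown first, to let the sequence at these starts be read. They lie in the 250 bases upstream of the listed gene start, within the merged region and outside every RefSeq gene span. Within this limit, 3 members with a region in 2 or more lists had such a stretch of at least 30 bases. The Atp2b1 region, upstream of its start, ended 258 bp or more before it and gave no stretch. The stretch of Slc30a9 is added as that of the highest-ranked member seen in 1 list. The merged region is wider than the bases its lists share. The Cnnm3 stretch lay under the peak of replicate 2 only, and those of Atp1b1 and Slc30a9 under that of replicate 1 only. The Slc9a8 stretch lay under the peak of replicate 3, and its last 16 bases also under that of replicate 2. Sequences are from RefSeq (GRCm38.p6), 5′ to 3′ on the gene's strand, and capitals mark GGGAA or its reverse complement TTCCC.
Cnnm3 (chr1:36511617-36511702, plus strand): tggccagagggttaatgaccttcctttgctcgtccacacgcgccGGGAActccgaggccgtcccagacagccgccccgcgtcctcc
Atp1b1 (chr1:164458356-164458522, minus strand): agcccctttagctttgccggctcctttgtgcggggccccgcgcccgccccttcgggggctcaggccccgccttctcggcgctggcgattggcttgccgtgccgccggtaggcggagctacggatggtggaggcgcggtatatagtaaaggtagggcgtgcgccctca
Slc9a8 (chr2:167421460-167421598, plus strand): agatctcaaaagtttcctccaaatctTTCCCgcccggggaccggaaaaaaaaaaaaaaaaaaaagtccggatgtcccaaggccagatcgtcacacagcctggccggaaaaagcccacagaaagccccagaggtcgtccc
Slc30a9 (chr5:67306803-67306954, plus strand): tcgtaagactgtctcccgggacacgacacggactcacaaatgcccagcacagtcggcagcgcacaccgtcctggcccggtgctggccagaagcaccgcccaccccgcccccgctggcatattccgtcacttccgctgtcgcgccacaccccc

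The Cnnm3 and Slc9a8 stretches each held 1 match to the core, in each case under the peak of 1 list only, and the Atp1b1 and Slc30a9 stretches held none. Over the 250 bases before the start, searched on both strands, GGGAA was present for 30 of the 38 members with a listed start (78.9%). The share was 80.0% for the 15 of these with a region in 2 or more lists. Among all protein-coding genes with a listed start it was 60.0%, and among the 1643 such genes named by a peak it was 67.3%. Most promoters hold these letters, so a match is a description and not a binding site.

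The strongest member by far was Slc35d1, whose product carries UDP-glucuronic acid and UDP-N-acetylgalactosamine into the endoplasmic reticulum for glycan synthesis. It was the 1 member gene with 2 separate regions in all lists. The inner region, on chromosome 4, 103202646 to 103203058 (mm10), lay inside the gene, 12.3 kb downstream of the listed start. Its fold enrichments were 11.9, 20.0 and 18.7 in replicates 1, 2 and 3, at percentiles of 96.6, 98.7 and 98.3. The second, 103214308 to 103214662, lay 691 bp downstream of the start, with fold enrichments of 7.76, 8.94 and 7.91 and percentiles of 92.4, 95.2 and 91.7. The inner region was the higher one in every list, by 2.05-fold on average (SD 0.45, n = 3 lists). The midpoints were 11.6 kb apart, and no other member region reached a fold enrichment of 10 in any list.

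**Figure D1:**
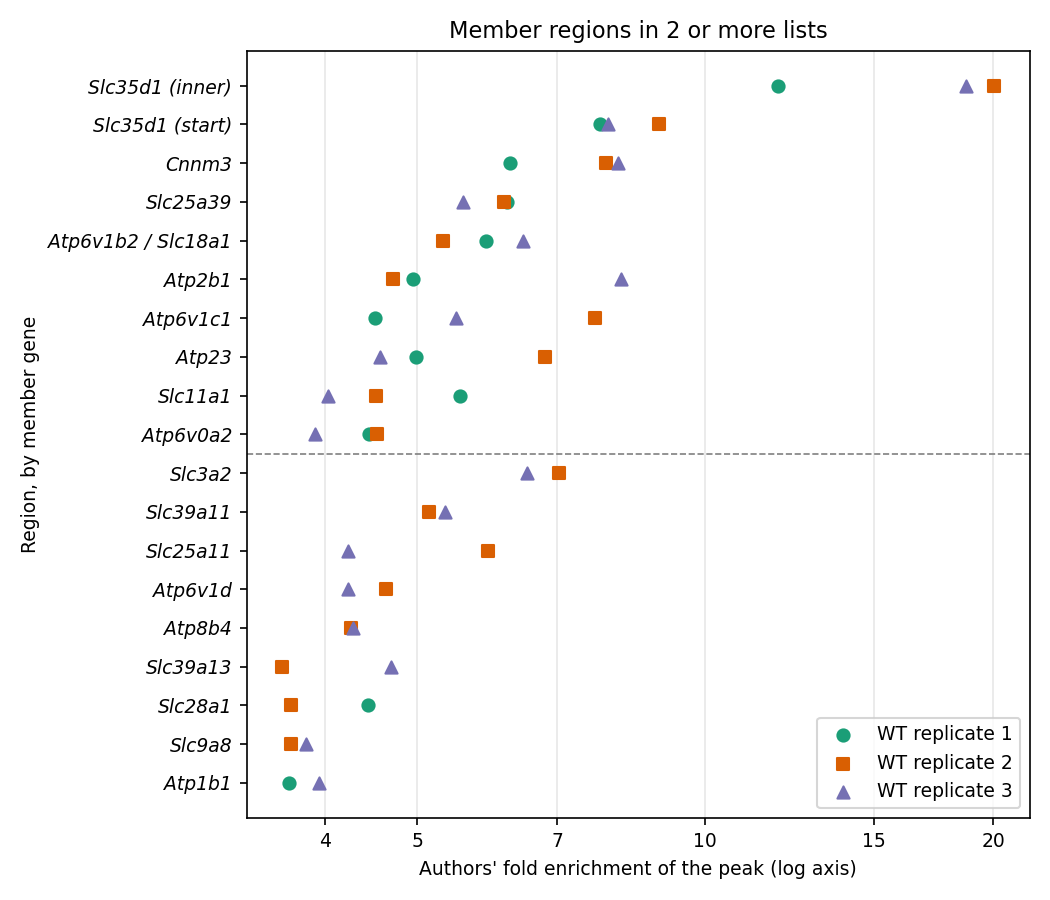
Fold enrichment, as the authors gave it, on a log axis for 19 member regions found in 2 or more lists; each symbol is the peak of 1 WT library, and the dashed line parts the 10 regions in all lists (above) from 9 in exactly 2. The inner Slc35d1 region stands apart at 11.9 to 20.0, while the regions of the other genes plotted lie between 3.61 and 8.16.

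Among carriers of metals and metabolites, Cnnm3 and Slc25a39 ranked next in all lists by mean percentile. Cnnm3 belongs to the CNNM family, which mediates magnesium transport. Its region on chromosome 1, 36511271 to 36511702, lay upstream with its midpoint 381 bp from the start, and its peaks in replicates 1, 2 and 3 reached a fold enrichment of 6.24, 7.88 and 8.11. Percentiles were 80.6, 92.1 and 92.3, so it ranked high in each list. Slc25a39, which brings glutathione into mitochondria, had a region at its start on chromosome 11, 102407477 to 102407826. The peaks of replicates 2 and 3 covered the start, and that of replicate 1 came within 24 bp of it. Fold enrichments there were 6.21, 6.16 and 5.58, at percentiles of 80.3, 82.5 and 65.5. Slc11a1 encodes the metal transporter of phagosomes known from macrophages. Its region, on chromosome 1, 74386675 to 74387026, lay 612 bp or more beyond the far end of the gene. It had 5.55, 4.52 and 4.03 in replicates 1, 2 and 3 and differed widely in rank, at percentiles of 65.5, 42.7 and 15.2.

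Pump genes were named at 4 of the 10 regions in all lists, those of Atp2b1, Atp6v1b2, Atp6v1c1 and Atp6v0a2. The plasma membrane calcium pump gene Atp2b1, whose product exports calcium after signalling, had a region upstream of its start on chromosome 10, 98914064 to 98914384. Its fold enrichments were 4.95, 4.72 and 8.16 in replicates 1, 2 and 3. Replicate 3 placed it at percentile 92.5, while replicates 1 and 2 placed it near the middle, at 44.1 and 49.3. Atp1b1 encodes a beta subunit of the sodium-potassium pump, which keeps the membrane gradient that many carriers use. Its region had 3.67 in replicate 1, whose peak covered the gene start, and 3.95 in replicate 3, whose peak stopped 110 bp from it. It ranked low in both lists, at percentiles of 4.23 and 12.1.

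The V-ATPase, the proton pump of lysosomes and granules, was named through 4 of its 26 genes, and each of the 4 had a region in 2 or more lists. That is 15.4% of its genes (interval 4.36 to 34.9), against 9.51% of all protein-coding genes named by any list and 4.43% with a region in 2 or more lists, and the interval holds both. Atp6v1c1, a subunit of the cytosolic V1 sector, had a region on chromosome 15, 38661696 to 38662038, with its midpoint 37 bp from an end of the gene. Its fold enrichments were 4.51, 7.67 and 5.49 in replicates 1, 2 and 3, and its percentiles spread widely, at 25.1, 91.4 and 63.6. Atp6v1b2, which encodes a nucleotide-binding subunit of V1, shared 1 region with Slc18a1, a vesicular monoamine transporter gene. That region, on chromosome 8, 69088483 to 69088783, reached 5.90, 5.32 and 6.45-fold enrichment in turn, and its midpoint lay 103 bp from an end of Atp6v1b2 and 605 bp from an end of Slc18a1. The midpoint was inside the span of Slc18a1 and outside that of Atp6v1b2. The region itself reached both genes, so the peak cannot be given to either. Atp6v0a2, of the membrane V0 sector, was weak but present everywhere, with 4.46, 4.54 and 3.91 at a site inside the gene 8409 bp from its nearer end. Atp6v1d had a region over its start with 4.64 and 4.23 in replicates 2 and 3.

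Atp23 met the naming rule although its product is a protease of the mitochondrial inner membrane, known from yeast, and pumps nothing. It had a region near its start in all lists, where replicates 1, 2 and 3 gave 4.99, 6.79 and 4.57-fold enrichment. The peak of replicate 3 covered the start, and those of replicates 1 and 2 stopped 275 and 271 bp from it. A second region, 4592 bp from the start, was listed in replicate 2 only, at 5.79. Without Atp23, 9 member genes had a region in all lists instead of 10.

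Regions in exactly 2 lists held carriers of amino acids, zinc, keto acids and protons. Slc3a2 encodes the CD98 heavy chain, the partner of amino acid exchangers that activated lymphocytes use to take up leucine. Its region, on chromosome 19, 8711952 to 8712258, was 1.79 kb inside the gene from the listed start. Replicates 2 and 3 gave 7.02 and 6.51-fold enrichment there. At percentiles of 89.3 and 82.5 it was the highest-ranked region among those absent from 1 list. Slc39a11, a member of the ZIP zinc importer family, had 5.14 and 5.34 in the same replicates, with a second region inside the gene at 4.13 in replicate 2. Its first region lay 1131 bp from the start of Cog1, nearer than to its own. Slc39a13, another ZIP gene, had 3.61 and 4.69 over its start.

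Slc25a11, the mitochondrial exchanger of oxoglutarate and malate, had 5.93 and 4.23 in replicates 2 and 3, at a site that also lay 47 bp from the start of Rnf167, which the authors' annotation names as well. The flippase gene Atp8b4 had 4.27 and 4.28 inside its RefSeq span, 8245 bp upstream of the listed start. Slc9a8, which encodes a sodium-proton exchanger of the Golgi, had 3.69 and 3.83 over its start in the same replicates, at percentiles of 9.12 and 8.35. Slc28a1, a nucleoside carrier gene, had 4.45 and 3.69 in replicates 1 and 2, at a distance of 9027 bp or more from the gene, and so was reached by proximity alone.

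Member regions seen in 1 list had a median fold enrichment near that of regions in exactly 2 lists in replicate 2. It was higher in replicates 1 and 3. In replicate 1 the medians were 5.75 for regions seen once and 4.06 for those in exactly 2 lists, over 2 regions each. Replicate 2 had 18 seen once, with fold enrichments of 3.77 to 5.79 and a median of 4.31, and replicate 3 had 11, at 3.69 to 5.96 with a median of 4.70. In exactly 2 lists the member medians were 4.27 in replicate 2 and 4.28 in replicate 3, and in all lists they were 6.48 and 6.02. For regions of any gene these medians were 4.93 and 4.99 in exactly 2 lists, above the members. In all lists they were 5.79 and 5.81, below the members. Regions of any gene seen once had medians of 4.45 in replicate 2 and 4.41 in replicate 3, near those of the members. The 2 member regions seen once in replicate 1 were those of Slc30a9 and Abcc4. Slc30a9, a mitochondrial zinc transporter gene, had 6.46 over its start. Abcc4, an exporter of cyclic nucleotides and the 1 ABC gene named, had 5.03. Next in rank were Slc25a5, which encodes an ADP/ATP carrier, at 5.96 and Slc37a1, of the sugar-phosphate exchangers, at 5.78, both in replicate 3. Slc39a14 at 5.11, Slc4a2, a chloride-bicarbonate exchanger gene, at 4.84, Slc30a7, a Golgi zinc transporter gene, at 4.82 and Slc25a41 at 4.73 followed in replicate 2. Slc37a3 had 5.03 in replicate 3.

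The glucose transporter genes Slc2a1 and Slc2a3 were each listed once, at 3.91 in replicate 3 and 4.25 in replicate 2, both inside the gene and far from an end, at 11286 and 31269 bp. Slc12a2, the sodium-potassium-chloride cotransporter gene, had 4.13 in replicate 3. Percentiles of these 3 were 10.4, 30.7 and 19.9, low in their lists.

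For a few members the authors' gene name and the surrounding genes point to different loci. Slc22a14 was named for 2 regions of replicate 2 at an author-given distance of 0, with fold enrichments of 5.29 and 4.21. In the RefSeq table the gene lay 132586 and 150840 bp from their midpoints. The first region lay 589 bp from the start of Oxsr1, a kinase of cation-chloride cotransporters, and the peak of the second was also assigned to Acaa1a and Myd88. Slc22a27, at 5.15 in replicate 2, was 17611 bp from its peak, and Slc16a11, at 3.77, was 13921 bp away. In all, 39 of the 51 regions overlapped their member gene by the authors' distance, and 33 had the start of a member gene as the nearest listed coding start.

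Most member regions with a listed start lay near it. Of the 42 regions whose member gene had a listed start, 27 had their midpoint within 1 kb of it (64.3%, 95% Clopper-Pearson interval 48.0 to 78.4, counting error only). Another 8 were farther downstream and 7 farther upstream. By number of lists, 5 of 7 regions in all lists, 5 of 9 in exactly 2 and 17 of 26 in 1 list were within that distance. Starts were not listed for 9 further regions, 6 of which lay within 1 kb of an end of the gene.

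**Figure D2:**
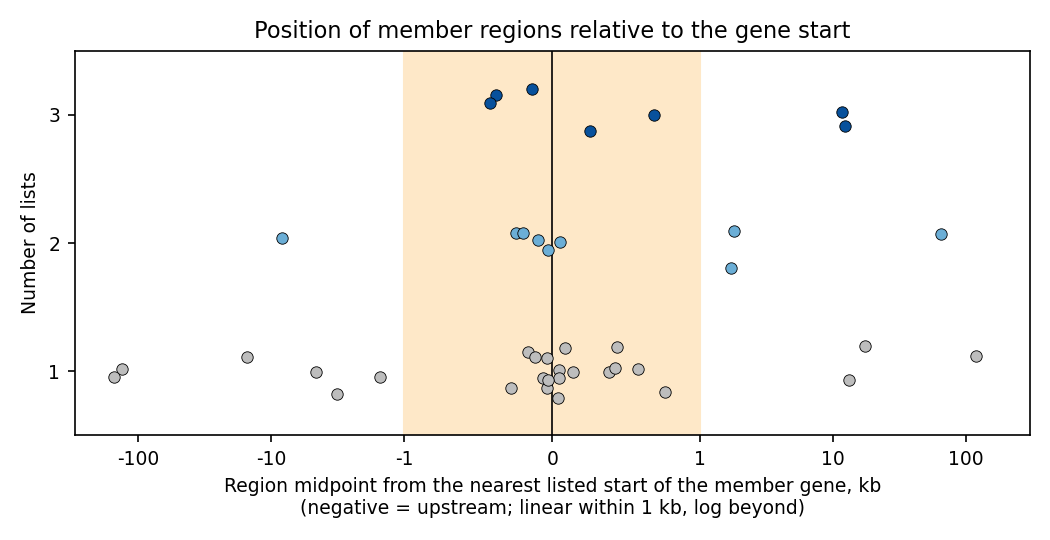
Distance in kb from the midpoint of each member region to the nearest listed start of its gene (horizontal axis, linear within 1 kb and logarithmic beyond, negative upstream), against the number of WT lists that hold it; points are scattered vertically for legibility and the shaded band spans 1 kb on each side. Of the 42 regions plotted, 27 lie within the band, and both regions in all lists outside it are downstream of the start.

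A larger share of member peaks than of other peaks lay at gene starts in each list, a difference that 3 lists are too few to bring past 0.05. Within 1 kb of any listed coding start lay 57.1%, 51.4% and 60.0% of member peaks in replicates 1, 2 and 3, against 46.9%, 41.3% and 49.3% of all other peaks. The difference averaged 10.3 percentage points (SD 0.325, n = 3 lists) and was positive in each, with an exact two-sided sign-flip permutation p of 0.25, the smallest that 3 lists allow. The naming rule admits only peaks with a protein-coding gene. Against other peaks with a protein-coding gene the difference was 3.98 points. Counted by region, the excess was in regions seen once, where 20 of 31 member regions (64.5%) lay within 1 kb of a coding start, against 47.1% of other regions with a protein-coding gene. Among regions in 2 or more lists it went the other way, with 10 of 20 member regions (50.0%), against 53.5%.

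Member peaks were neither stronger nor weaker in a steady way. Median percentiles were 56.6, 46.8 and 39.2 for member peaks in replicates 1, 2 and 3, and 50.1, 50.1 and 50.3 for the other peaks. The difference was thus positive in replicate 1 and negative in the others, with a mean of -2.63 (SD 8.86, n = 3 lists) and an exact two-sided sign-flip permutation p of 0.75. Without replicate 3 the mean turned to 1.61. Median peak widths were 270.5, 288 and 277.5 bp for members and 281, 293 and 295 bp for the others.

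**Figure D3:**
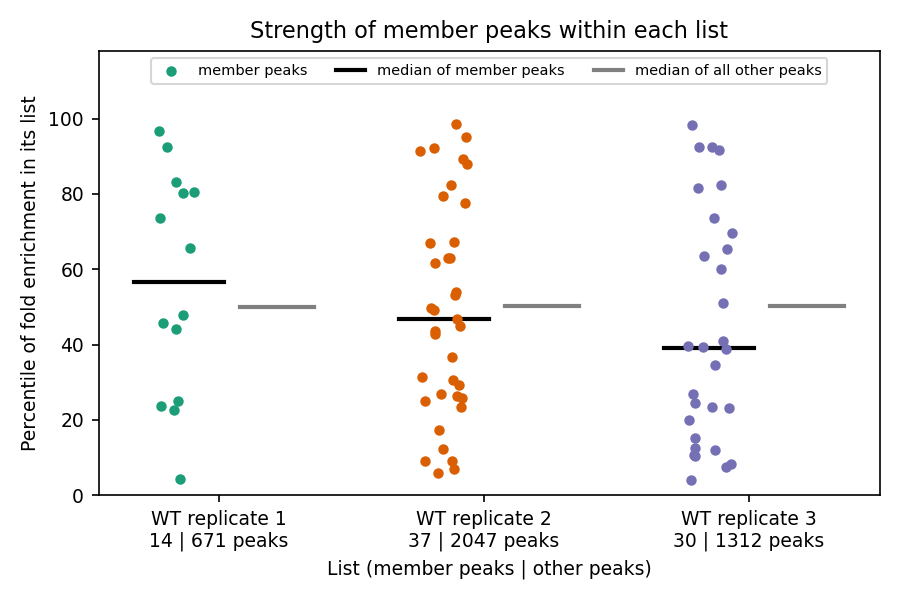
Percentile of fold enrichment of every member region within each WT list (coloured points; the strongest peak of a list is at 100), with black lines at the median of the member peaks and grey lines at the median of all other peaks. The member medians are 56.6, 46.8 and 39.2, on both sides of the other peaks at about 50.1 to 50.3.

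Reproducibility of the member regions was near that of all regions. Of 51 member regions, 10 were in all lists (19.6%, interval 9.82 to 33.1), against a background of 19.8% of all regions. In 2 or more lists were 20 (39.2%, interval 25.8 to 53.9), against 42.9%. Counted by gene, 10 of 48 members had a region in all lists (20.8%), against 21.7% of all protein-coding names, and 20 had one in 2 or more lists (41.7%), against 46.9%. With only peaks at a −log10 q of 5 or more, 5 of 15 member regions were in all lists (33.3%, against 21.7% of all regions), and they held 5 genes.

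Taken over the genome, transporter and pump genes were named by peaks about as often as other genes, with differences between families that small counts leave wide. Of 491 genes that meet the rule in the RefSeq table, 48 were named by a peak of any list (9.78%, interval 7.30 to 12.8), against 9.51% of all 21900 protein-coding genes. Zinc carriers of the SLC30 and SLC39 families had 6 of 24 (25.0%, interval 9.77 to 46.7), 2 of them, Slc39a11 and Slc39a13, in 2 or more lists. Mitochondrial SLC25 carriers had 7 of 47 (14.9%), of which Slc25a11 and Slc25a39 were in 2 or more lists. Nucleotide sugar carriers had 4 of 27 (14.8%), with Slc35d1 the 1 in more than 1 list. P4 flippases, which turn phospholipids between membrane leaflets, had 3 of 10 (interval 6.67 to 65.2%), with Atp8b4 in 2 or more lists. ABC transporters had 1 of 50 (2.00%, interval 0.0506 to 10.6), and the remaining solute carriers 16 of 277 (5.78%, interval 3.34 to 9.21). The interval of the zinc carriers lies just above 9.51%, and that of the remaining solute carriers just below it. Intervals of the other families in this paragraph hold 9.51%, and none is corrected for the number of families. With a region in 2 or more lists were 8.33% of zinc carriers, 4.26% of SLC25 carriers, 3.70% of nucleotide sugar carriers and 10.0% of P4 flippases. For all genes of the rule that share was 4.07%, against 4.43% of all protein-coding genes.

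**Figure D4:**
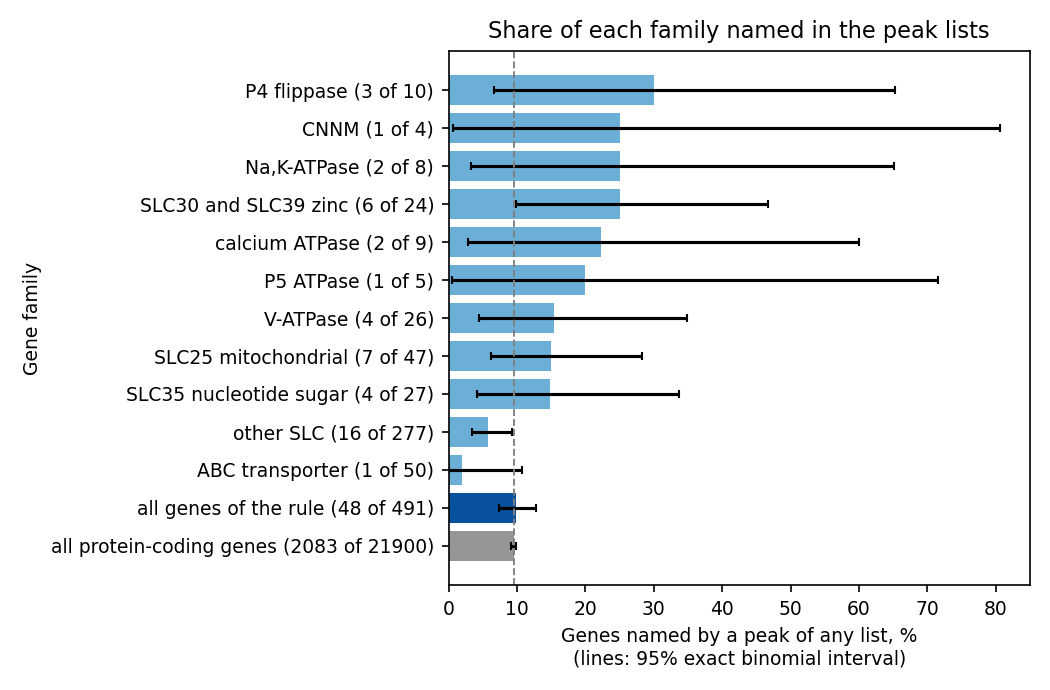
Share of each family's genes in the RefSeq table that a peak of any WT list names (bars, starting at 0) with 95% exact binomial intervals over genes; the dashed line is the 9.51% of all protein-coding genes. ABC transporters, at 1 of 50, and the other solute carriers, at 16 of 277, lie below the line. The other families lie above it, among them zinc carriers, at 6 of 24, and P4 flippases, at 3 of 10. Among families, only the intervals of the zinc carriers and of the other solute carriers leave out the line.

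Amino acid, glucose and monocarboxylate, and nucleoside and vitamin carriers were named in small numbers whose intervals hold the 9.51% of all protein-coding genes. Of 15 amino acid carriers chosen for NK and T cell metabolism, Slc3a2 and Slc36a4 were named (13.3%, interval 1.66 to 40.5), so the exchanger partners of CD98 on that list had no peak assigned. Of 9 glucose and monocarboxylate carriers Slc2a1 and Slc2a3 were named (22.2%, interval 2.81 to 60.0), and 0 of 8 nucleoside and vitamin carriers were (interval up to 36.9). Metal carriers, a list that takes in the zinc carriers above, had 8 of 31 (25.8%, interval 11.9 to 44.6). That interval lies above 9.51%, without correction for the number of gene groups compared. Of the 31, 4 had a region in 2 or more lists (12.9%, against 4.43% of all protein-coding genes). As a check on cell type, Klrb1c and Gzmb were named among 8 NK marker genes, and 0 of the 4 T cell, 3 B cell and 3 myeloid markers in the table; peaks near a gene do not measure its expression, so the cell type cannot be judged from them.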

How the data were processed

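Ikaros ChIP-seq peak lists of 3 WT libraries were used. Per the labels' protocols, fixation was in 2% formaldehyde, fragments after shearing were 100 to 200 bp, and precipitation took 2 µg of antibody. The submitters' processing notes name MACS2, edgeR 3.20.0, SAMtools, Picard and Subread and the build mm10, with no roles given. The labels and headers used here do not name the control library, q threshold or gene annotation. Each peak has, from the authors and per the file headers, a linear ratio called fold enrichment, −log10 p and q values, a score (10 times the −log10 q, cut to a whole number), a width and a distance to the named gene. Peak names give 1 list per library; the list named R4 is WT replicate 3, by its label.

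Rows were reduced to 1 per peak, and peaks that overlapped by 1 base or more were merged. Starts of protein-coding genes came from the RefSeq promoter table (GRCm38.p6), which lists a start for 17492 of 21900 genes, and gene ends from the RefSeq gene table. Both use the same coordinates as mm10: of author rows at distance 0, 93.4% overlapped the RefSeq span of that gene. All 48 members matched a RefSeq symbol, and 38 had a listed start. Exons, introns and UTRs were left unassigned. The distance of a region was taken from its midpoint. Coordinates are as the authors' files give them. Differences between member and other peaks were tested over lists with an exact sign-flip permutation test; peaks are not replicates. Named genes were members with a region in 2 or more lists, those with 2 or more regions, and the 10 highest-ranked others; Slc2a1, Slc2a3, Slc12a2, Abcc4, Slc16a11, Slc36a4, Slc10a7 and Atp8a1 were named after their values were seen. Some items are not reported here. Members and lists were chosen with earlier results of these data known. Merging recovered 300 of 300 regions on simulated data. Python 3.11.15, NumPy 2.4.6, pandas 2.3.3, SciPy 1.17.1 and matplotlib 3.10.9 were used. Alternatives covered overlap rules, q thresholds, list lengths, distances and leaving out each list.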

Additional observations from a re-analysis of the deposited data

How the results depend on the processing

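No paired analysis was possible because every list used is of WT cells, so that there is no second group to pair with. Depth is unknown, so a member missing from a list may be unbound or too weakly covered. Leaving out Atp23 was chosen after seeing the data. Stricter thresholds, shorter lists and fewer lists change the counts by construction; other causes were not tested. Member regions in all lists made up 33.3% at a −log10 q of 5 or more (5 genes; 21.7% of all regions) and 33.3% at 10 or more (2 of 6 regions, 1 gene; 24.7% of all regions), and equal list lengths left 6 genes. Without 1 replicate the share in both remaining lists ranged from 27.5% to 36.7%, against 26.3% to 39.2% of all regions, and the genes from 11 to 18. The share in 2 or more lists stayed within its interval under the alternatives run. The difference of median percentile changed sign to 7.83 at a −log10 q of 5 or more, to 0.786 with peaks within 1 kb of the member gene, and without 1 replicate ranged from -7.23 to 1.61. The difference in share near gene starts stayed positive under the alternatives run, all of which counted peaks, from 3.98 to 20.5 points. Counted by region in 2 or more lists it was reversed, at 50.0% of member regions against 53.5% of others with a protein-coding gene.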

Other observations

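Some regions lay at the starts of transporter genes without carrying their names. A region on chromosome 8, 78508422 to 78508810, lay 712 bp from a start of Slc10a7, a solute carrier gene of the bile acid transporter family, while the authors' annotation names Rbmxl1. It was in all lists, at 7.19, 7.94 and 5.49-fold enrichment in replicates 1, 2 and 3 and percentiles of 89.1, 92.5 and 63.5. A region 352 bp from a start of the flippase gene Atp8a1, named Gm15477 by the authors, was in replicate 2 only, at 4.01. These 2 were the regions within 1 kb of a listed start of a gene that meets the rule but with no member named.

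Genes that work with these transporters but fall outside the naming rule were also named. Among genes of calcium entry and release, Stim2, a calcium sensor of the endoplasmic reticulum, had a region in all lists and Itpr1, a calcium release channel gene, one in 2 or more. Of 40 P-type ATPases, the flippase gene Atp9b, which the rule does not take, had one in all lists. Of 137 channel genes 8 were named by any list (5.84%, interval 2.55 to 11.2), against 9.51% of all protein-coding genes, a value the interval holds. Of these, Clcn2, Kcnma1 and Trpm8 had a region in 2 or more lists (2.19%, against 4.43%). Among 12 genes of V-ATPase assembly and lysosomal sensing Lamtor2 was the 1 named (8.33%, interval 0.211 to 38.5). Among 7 flippase partners and scramblases Plscr1 and Xk were named (28.6%, interval 3.67 to 71.0). Each of the 3 had a region in 2 or more lists, and both intervals hold 9.51% and 4.43%. Of 6 kinases of cation-chloride carriers, Stk39 was named, in 1 list (16.7%, interval 0.421 to 64.1, which holds 9.51%).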
